A study of Homo sapiens with 12 samples.

Results

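The genes described here are 9 of the 19775 genes with a probe set of their own on the array: the guanylate-binding protein genes GBP1, GBP2, GBP3, GBP4 and GBP5, the N-myc and STAT interactor gene NMI, the transcription factor gene IRF1, the kinase gene JAK2 and the receptor gene IFNGR1. They were taken by name as interferon-gamma factors, and the choice was made with their resistant-against-parental values in view, NMI and GBP1 because they stood higher in both resistant lines. Of the 54613 probe sets in the table, 20 name 1 of these genes and no other: 4 for GBP1, 3 each for JAK2 and IFNGR1, 2 each for GBP2, GBP4, GBP5 and IRF1, and 1 each for GBP3 and NMI. No filter on low values was applied, so all 9 genes and all 20 probe sets are accounted for. Because the members were selected on the comparison of resistant with parental cells, their values in it are given as a description, without a test. Their differences between the KMS-34 and KMS-11 backgrounds, which the choice did not use, were tested, although on the same 12 arrays.

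RNA was measured in 4 groups of human multiple myeloma cells, with 3 arrays each. KMS-34/Cfz and KMS-11/Cfz are derivatives of the cell lines KMS-34 and KMS-11 that had been selected stepwise up to 12 nM carfilzomib, a proteasome inhibitor, and had then grown for 1 week in drug-free medium, while the parental KMS-34 and KMS-11 cells had never been under selection. Both lines carry the t(4;14) translocation, and every culture received 4% serum according to the sample labels, whereas the methods of the study give a higher percentage. Only 1 resistant derivative was profiled per line, so that an effect of selection and a chance difference of that derivative cannot be told apart. The labels do not say whether the 3 arrays of a group came from separate cultures, and p-values therefore measure only the spread between these arrays.

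The deposited values are log2 values centred for each probe set. A value thus places an array relative to the rest and gives no expression level, levels cannot be compared between genes, and the presence of plasma cell markers could not be checked against the label. Arrays of 1 group correlated over all probe sets at 0.76 to 0.95. KMS-34/Cfz replicate 1 stood apart, with correlations of 0.81 and 0.76 to the other arrays of its group, which correlated with each other at 0.92. As RNA came from whole cultures, more expressing cells and more RNA per cell cannot be told apart.

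Interferon-gamma acts through a receptor built from IFNGR1 and IFNGR2 chains, whose associated kinases JAK1 and JAK2 start the signal to the nucleus. Target genes of the pathway often carry short GAS elements in their promoters. One of these targets is IRF1, a transcription factor that binds ISRE-type elements and extends the response to later genes. The guanylate-binding proteins are large GTPases and among the most strongly interferon-induced proteins of human cells, known for attacking vacuoles that hold pathogens and for promoting inflammasome activation. NMI is itself interferon-inducible, interacts with STAT and MYC family proteins and forms a complex with IFI35.

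The promoters of the genes on which the results turn are shown because this pathway acts through short elements near the transcription start. Each run of 300 bases covers 250 bases before and 50 after a transcription start of the RefSeq annotation (GRCh38.p14), on the strand of the gene. Capitals mark matches on either strand to GAS (TTCNNNGAA) or to the core of ISRE (GAAANNGAA, reading TTCNNTTTC on the opposite strand), and no 2 matches overlap. The windows lie on the minus strand at chr1:89065159-89065458 for GBP1, chr1:89022817-89023116 for GBP3, chr2:151289619-151289918 for NMI and chr5:132490724-132491023 for IRF1.
GBP1: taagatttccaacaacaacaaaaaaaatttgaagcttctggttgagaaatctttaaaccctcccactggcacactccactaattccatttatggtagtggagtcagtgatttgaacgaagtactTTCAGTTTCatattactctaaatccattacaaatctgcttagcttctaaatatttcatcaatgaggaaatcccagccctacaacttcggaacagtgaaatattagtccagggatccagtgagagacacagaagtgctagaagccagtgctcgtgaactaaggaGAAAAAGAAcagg
GBP3: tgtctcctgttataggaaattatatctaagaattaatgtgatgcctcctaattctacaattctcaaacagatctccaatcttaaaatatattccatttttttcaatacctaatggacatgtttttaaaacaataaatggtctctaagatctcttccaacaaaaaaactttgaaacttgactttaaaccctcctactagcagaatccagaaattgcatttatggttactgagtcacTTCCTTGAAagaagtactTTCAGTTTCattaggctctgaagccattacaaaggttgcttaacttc
NMI: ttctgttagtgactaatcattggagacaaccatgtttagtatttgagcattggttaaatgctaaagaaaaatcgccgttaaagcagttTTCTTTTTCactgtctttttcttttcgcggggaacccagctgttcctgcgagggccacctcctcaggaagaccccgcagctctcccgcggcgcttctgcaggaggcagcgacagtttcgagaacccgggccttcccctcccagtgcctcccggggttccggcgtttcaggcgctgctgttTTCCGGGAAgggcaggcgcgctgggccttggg
IRF1: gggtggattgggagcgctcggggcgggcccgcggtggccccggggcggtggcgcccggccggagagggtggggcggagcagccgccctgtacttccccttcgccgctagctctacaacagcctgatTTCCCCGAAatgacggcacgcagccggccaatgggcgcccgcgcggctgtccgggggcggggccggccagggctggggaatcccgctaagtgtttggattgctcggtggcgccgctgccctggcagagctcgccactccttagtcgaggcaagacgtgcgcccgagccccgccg

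GBP1 held 2 matches to the ISRE core, the first starting at position -126 and the second at 38, counted from the transcription start without a position 0. GBP3 held a GAS match at -15 and an ISRE core match at 4. The ISRE core matches at -126 in GBP1 and at 4 in GBP3 have the same 9 letters, TTCAGTTTC. NMI held a GAS match at 19 and an ISRE core match at -162, and IRF1 a GAS match at -124. GBP4, in the window chr1:89198893-89199192, held an ISRE core match at -3, TTCAATTTC. The 4 windows of JAK2 and the 2 of IFNGR1 held neither motif. RefSeq promoters were matched for 7 of the 9 genes, and GBP2 and GBP5 are named only. Of all 35116 promoter windows of this length, 7.66% held a GAS match and 8.11% an ISRE core match. These matches are descriptions of the letters and not evidence of binding.

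In resistant against parental cells, NMI, GBP1 and GBP3 stood higher in both lines, with every resistant array above every parental array of its line. Of the 9 members, 6 stood above their parental arrays without overlap in KMS-34/Cfz and none below, against 10.2% of all genes above and 10.5% below. In KMS-11/Cfz, 3 stood above and 1, JAK2, below, against 13.1% of all genes above and 13.7% below. As the choice of members used these contrasts, nothing is read from the counts. The plot of the gene values on each array shows all 4 groups side by side.

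**Figure D1:**
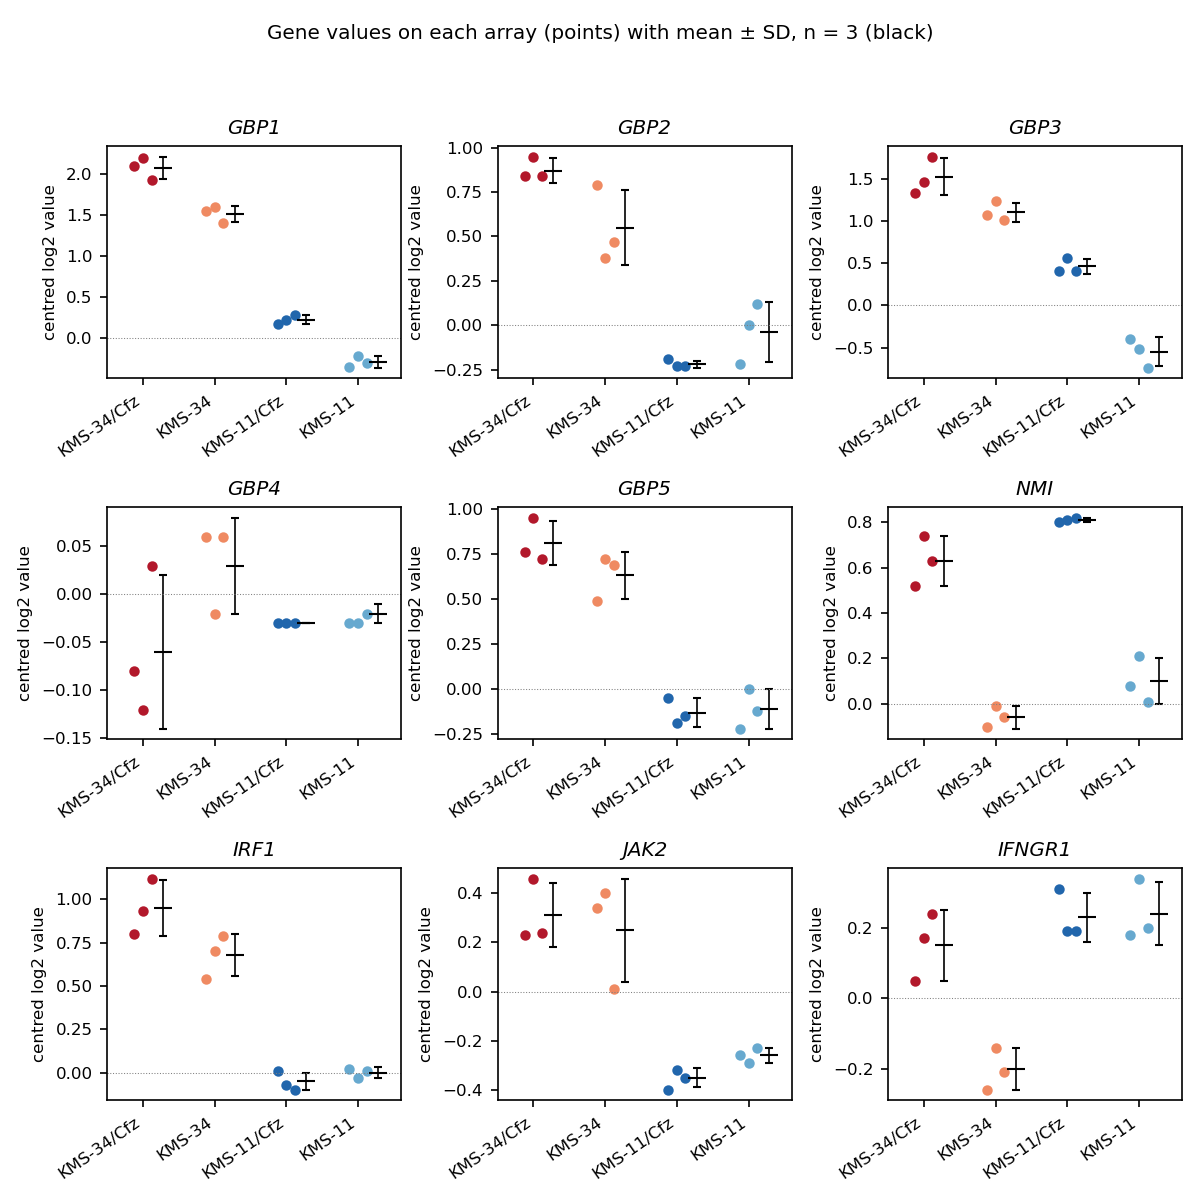
Centred log2 value (y axis) of each of the 9 genes on each of 12 arrays, by group (x axis), as coloured points, with the mean and SD of the 3 arrays in black; the y scale differs between panels. NMI sits at 0.52 to 0.82 on the 6 resistant arrays and at -0.10 to 0.21 on the 6 parental arrays, whereas GBP1 separates the lines first, with 1.40 to 2.19 on the KMS-34 side and -0.36 to 0.27 on the KMS-11 side.

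NMI (chr2:151270470-151289668), measured by 1 probe set (203964_at), had values of 0.52, 0.74 and 0.63 in KMS-34/Cfz, against -0.10, -0.01 and -0.06 in KMS-34. It had 0.80, 0.81 and 0.82 in KMS-11/Cfz, against 0.08, 0.21 and 0.01 in KMS-11. NMI was the only member with each of the 6 resistant arrays above each of the 6 parental ones. The log2 difference was 0.68 ± 0.07 (SE) in KMS-34/Cfz, or 1.61-fold, and 0.71 ± 0.07 in KMS-11/Cfz, or 1.64-fold. The difference between these changes was -0.03 ± 0.10. The group means ordered as KMS-34, KMS-11, KMS-34/Cfz and KMS-11/Cfz from low to high, with no overlap between neighbours.

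GBP1 (chr1:89052319-89065208), the best-studied guanylate-binding protein, had 2.10, 2.19 and 1.92 in KMS-34/Cfz, against 1.54, 1.60 and 1.40 in KMS-34, as the mean of its 4 probe sets. In KMS-11/Cfz it had 0.16, 0.22 and 0.27, against -0.36, -0.22 and -0.31 in KMS-11. No arrays of different groups overlapped, and values were lowest in KMS-11, then KMS-11/Cfz, then KMS-34, and highest in KMS-34/Cfz. The log2 difference was 0.56 ± 0.08 in KMS-34/Cfz (1.47-fold) and 0.51 ± 0.08 in KMS-11/Cfz (1.43-fold), and these changes differed by 0.04 ± 0.11.

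The probe sets of GBP1 did not all behave alike. In KMS-34/Cfz against KMS-34, 202269_x_at differed by 0.66 ± 0.10, 202270_at by 0.64 ± 0.11 and 231577_s_at by 0.96 ± 0.19. In KMS-11/Cfz against KMS-11, the same probe sets differed by 0.63 ± 0.10, 0.62 ± 0.11 and 0.59 ± 0.19. All 3 had their resistant arrays above their parental arrays in both lines. The fourth, 231578_at, stayed between -0.46 and 0.15 on all 12 arrays and differed by -0.04 ± 0.11 in KMS-34/Cfz and by 0.22 ± 0.11 in KMS-11/Cfz, with overlapping arrays in both. Including it draws the gene value of GBP1 towards 0. Whether 231578_at detects the GBP1 transcript was not tested.

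**Figure D2:**
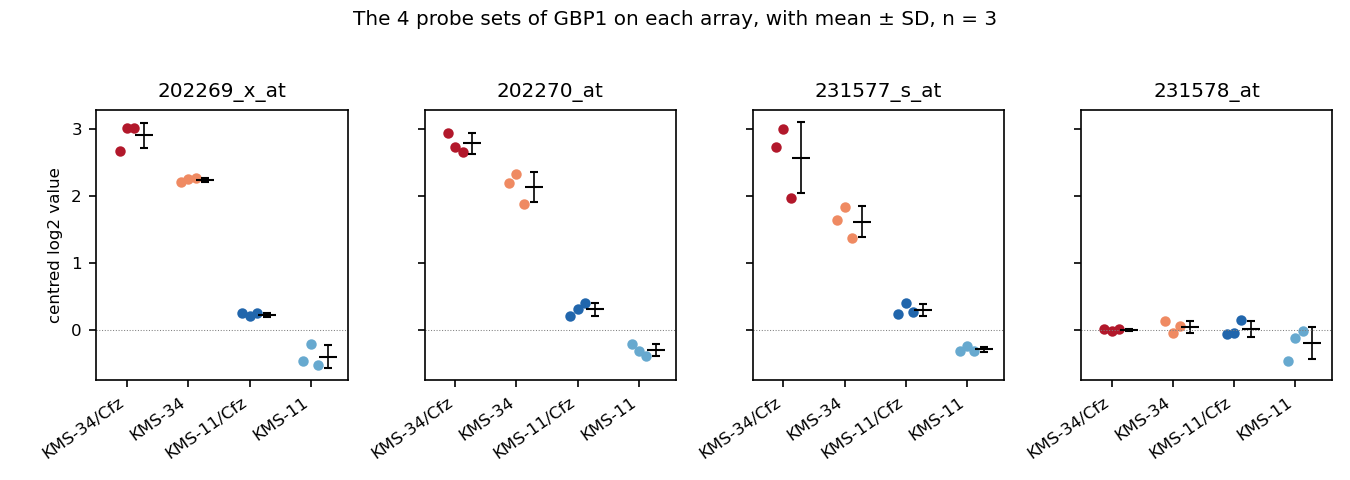
Centred log2 value (y axis) of the 4 GBP1 probe sets on each of 12 arrays, by group (x axis), with the mean and SD of 3 arrays in black. Probe sets 202269_x_at, 202270_at and 231577_s_at place the KMS-34/Cfz arrays at 1.98 to 3.02, whereas 231578_at stays within -0.46 to 0.15 throughout.

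GBP3 (chr1:89006680-89022866), a GTPase of the same family encoded next to GBP1, had 1.33, 1.46 and 1.76 in KMS-34/Cfz, against 1.07, 1.23 and 1.01 in KMS-34. It had 0.40, 0.56 and 0.41 in KMS-11/Cfz, against -0.40, -0.52 and -0.74 in KMS-11. Its groups came in the same order as those of GBP1, again without overlap between neighbours. The log2 difference was 0.41 ± 0.11 in KMS-34/Cfz (1.33-fold) and 1.01 ± 0.11 in KMS-11/Cfz (2.02-fold), the largest of any member in that line. The change in KMS-34/Cfz was thus 0.60 lower than in KMS-11/Cfz (difference of the changes -0.60 ± 0.16).

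GBP2 (chr1:89106132-89126114), another GTPase of the family, stood higher in KMS-34/Cfz and, on average, lower in KMS-11/Cfz than in the parental cells. It had 0.84, 0.95 and 0.84 in KMS-34/Cfz, against 0.79, 0.38 and 0.47 in KMS-34. In KMS-11/Cfz it had -0.19, -0.23 and -0.23, against -0.22, 0.00 and 0.12 in KMS-11. The KMS-34/Cfz arrays lay above those of KMS-34, whereas those of KMS-11/Cfz and KMS-11 overlapped. The log2 differences were 0.33 ± 0.10 and -0.18 ± 0.10, and their difference was 0.51 ± 0.15. Both probe sets overlapped between KMS-34/Cfz and KMS-34, at 0.30 ± 0.12 for 202748_at and 0.35 ± 0.15 for 242907_at, and only their mean separated the groups. In KMS-11/Cfz, 202748_at lay below KMS-11 on all arrays (-0.30 ± 0.12), whereas 242907_at overlapped (-0.06 ± 0.15).

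GBP5 (chr1:89256189-89272860), a family member known for promoting NLRP3 inflammasome assembly, had 0.76, 0.95 and 0.72 in KMS-34/Cfz, against 0.49, 0.72 and 0.69 in KMS-34. It had -0.05, -0.19 and -0.15 in KMS-11/Cfz, against -0.22, 0.00 and -0.12 in KMS-11. Resistant and parental arrays overlapped in both lines, with log2 differences of 0.18 ± 0.09 in KMS-34/Cfz and -0.02 ± 0.09 in KMS-11/Cfz. GBP4 (chr1:89181144-89198942) stayed between -0.12 and 0.06 on all 12 arrays and showed no separation of any groups. Its log2 differences were -0.09 ± 0.06 in KMS-34/Cfz and -0.01 ± 0.06 in KMS-11/Cfz. Such flat values can also come from a probe set without signal, which centred values cannot show.

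IRF1 (chr5:132481609-132490773), the factor that carries the interferon-gamma signal to later target genes, had 0.80, 0.93 and 1.12 in KMS-34/Cfz, against 0.54, 0.70 and 0.79 in KMS-34. It had 0.01, -0.07 and -0.10 in KMS-11/Cfz, against 0.02, -0.03 and 0.01 in KMS-11. The KMS-34/Cfz arrays stood just above those of KMS-34, and the arrays of KMS-11/Cfz and KMS-11 overlapped. The log2 difference was 0.27 ± 0.08 in KMS-34/Cfz and -0.05 ± 0.08 in KMS-11/Cfz. Its probe set 202531_at differed by 0.33 ± 0.09 in KMS-34/Cfz without overlap, and 238725_at by 0.22 ± 0.10 with overlap.

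IFNGR1 (chr6:137197484-137219385), the ligand-binding chain of the interferon-gamma receptor, had 0.05, 0.17 and 0.24 in KMS-34/Cfz, against -0.26, -0.14 and -0.21 in KMS-34. It had 0.31, 0.19 and 0.19 in KMS-11/Cfz, against 0.18, 0.34 and 0.20 in KMS-11. KMS-34 was the low group, and the other 3 groups overlapped with their neighbours. The log2 difference was 0.36 ± 0.07 in KMS-34/Cfz (1.28-fold) and -0.01 ± 0.07 in KMS-11/Cfz, and these changes differed by 0.37 ± 0.10. The probe sets 202727_s_at and 211676_s_at differed by 0.45 ± 0.07 and 0.44 ± 0.11 in KMS-34/Cfz, and 242903_at by 0.18 ± 0.08, all 3 without overlap.

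JAK2 (chr9:4984390-5129948), the kinase bound to the IFNGR2 chain, had 0.23, 0.46 and 0.24 in KMS-34/Cfz, against 0.34, 0.40 and 0.01 in KMS-34. It had -0.40, -0.32 and -0.35 in KMS-11/Cfz, against -0.26, -0.29 and -0.23 in KMS-11. The arrays overlapped in the KMS-34 pair, and those of KMS-11/Cfz lay just below those of KMS-11. The log2 differences were small, 0.06 ± 0.10 in KMS-34/Cfz and -0.09 ± 0.10 in KMS-11/Cfz, and none of its 3 probe sets separated resistant from parental arrays in either line.

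**Figure D3:**
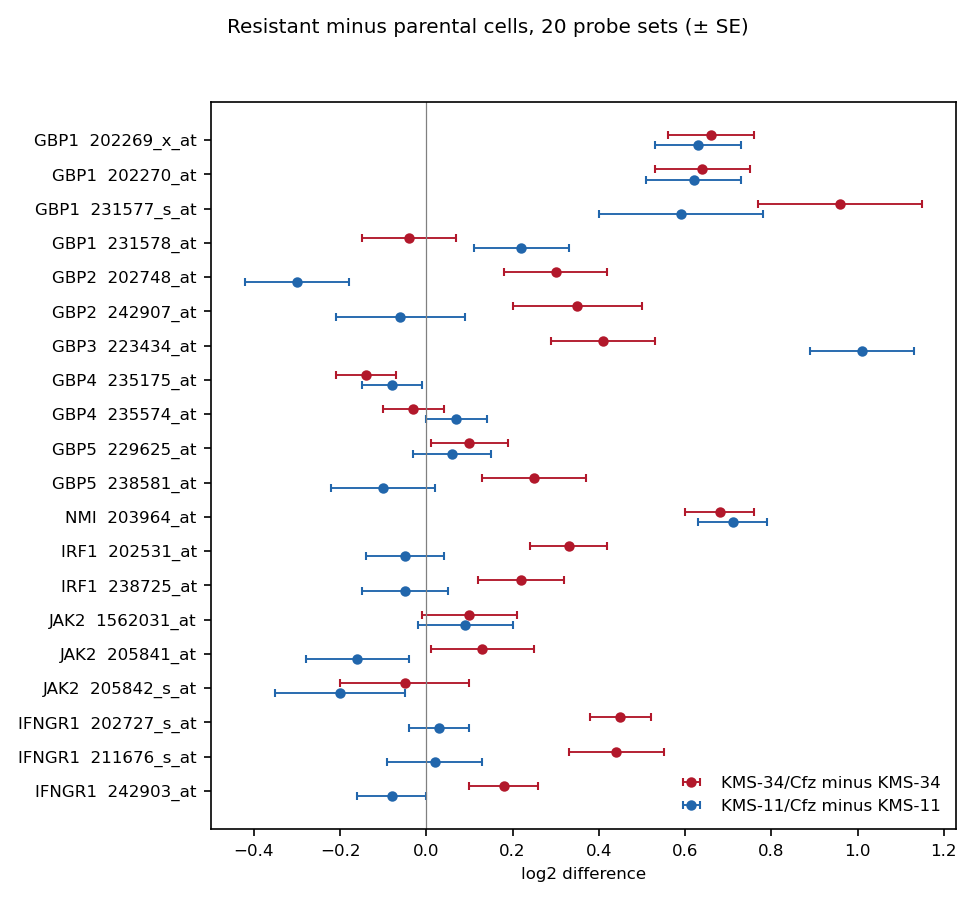
Log2 difference between resistant and parental cells (x axis) for each of the 20 probe sets (y axis), in KMS-34/Cfz (red) and KMS-11/Cfz (blue), with bars of 1 standard error from the fit to 12 arrays. NMI and 3 GBP1 probe sets lie between 0.59 and 0.96 in both lines, GBP3 lies at 0.41 in KMS-34/Cfz and at 1.01 in KMS-11/Cfz, and the 5 IFNGR1 and IRF1 probe sets lie at 0.18 to 0.45 in KMS-34/Cfz and at -0.08 to 0.03 in KMS-11/Cfz.

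The sizes of some of these differences depend on the scaling and on the probe sets. After a cyclic loess scaling of the arrays, the GBP3 difference was 0.16 in KMS-34/Cfz and 1.35 in KMS-11/Cfz, and the difference between its changes was -1.18. Under the same scaling, the IRF1 difference in KMS-34/Cfz was 0.09, and the changes differed by -0.30 for GBP1 and by -0.32 for NMI. Without probe sets ending in x_at or s_at, the IFNGR1 difference in KMS-34/Cfz was 0.18 and that of GBP1 0.30.

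The comparison of the KMS-34 with the KMS-11 background asked whether the members differed between the lines before selection and after it. GBP1, GBP2, GBP3, GBP5, IRF1 and JAK2 were higher in the KMS-34 background both in parental and in resistant cells, IFNGR1 was lower in parental KMS-34 cells, and GBP4 and NMI did not pass the test in either comparison. In parental cells, 6 of 9 members were called higher and 1 lower, against 21.6% of all genes called higher and 20.5% lower. In resistant cells, 6 of 9 were called higher and none lower, against 22.5% higher and 20.8% lower. Values of p come from limma's moderated test, with Benjamini-Hochberg adjustment across the 19775 genes.

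GBP1 differed most between the lines. It was 3.51-fold higher in KMS-34 than in KMS-11 (log2 difference 1.81 ± 0.08, adjusted p = 2.7e-10) and 3.61-fold higher in KMS-34/Cfz than in KMS-11/Cfz (1.85 ± 0.08, adjusted p = 2.0e-10). All KMS-34/Cfz and KMS-34 arrays lay above all KMS-11/Cfz and KMS-11 arrays. By probe set, the difference in parental cells was 2.65 ± 0.10 for 202269_x_at, 2.45 ± 0.11 for 202270_at and 1.91 ± 0.19 for 231577_s_at, but 0.25 ± 0.11 for 231578_at (adjusted p = 0.097). In resistant cells it was 2.67 ± 0.10, 2.48 ± 0.11 and 2.28 ± 0.19, and -0.01 ± 0.11 for 231578_at (adjusted p = 0.95). The probe set chosen thus sets the size of the GBP1 difference. After a cyclic loess scaling of the arrays, the gene value differed by 3.65 in parental and 3.34 in resistant cells.

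GBP3 was 3.16-fold higher in KMS-34 than in KMS-11 (1.66 ± 0.11, adjusted p = 2.4e-08) and 2.08-fold higher in KMS-34/Cfz than in KMS-11/Cfz (1.06 ± 0.11, adjusted p = 2.2e-06). GBP2 was higher in parental cells (0.58 ± 0.10, adjusted p = 3.3e-04) and 2.13-fold higher in resistant cells (1.09 ± 0.10, adjusted p = 7.3e-07). The distance between the lines was thus smaller for GBP3 and larger for GBP2 in resistant cells, which restates the differences of the changes given above as a description. For GBP5 the difference was 0.75 ± 0.09 in parental cells (adjusted p = 6.4e-06) and 0.94 ± 0.09 in resistant cells (adjusted p = 5.6e-07). GBP4, the member that lies between GBP2 and GBP5 in the cluster, differed by 0.06 ± 0.06 (adjusted p = 0.52) in parental and by -0.03 ± 0.06 (adjusted p = 0.76) in resistant cells.

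IRF1 was 1.60-fold higher in KMS-34 than in KMS-11 (0.68 ± 0.08, adjusted p = 1.2e-05) and also higher in KMS-34/Cfz than in KMS-11/Cfz (1.00 ± 0.08, adjusted p = 2.2e-07). JAK2 was 1.42-fold higher in parental cells (0.51 ± 0.10, adjusted p = 5.0e-04) and 1.58-fold higher in resistant cells (0.66 ± 0.10, adjusted p = 4.6e-05), with all 3 probe sets past the threshold in both comparisons. IFNGR1 ran against this direction. It was lower in KMS-34 than in KMS-11 (-0.44 ± 0.07, adjusted p = 1.4e-04), while in resistant cells the difference was -0.08 ± 0.07 (adjusted p = 0.44). Its call in parental cells rests on the probe sets 202727_s_at and 211676_s_at, since with 242903_at alone the difference was -0.19 (adjusted p = 0.075 over the genes left).

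For NMI the difference between the backgrounds was small beside that between resistant and parental cells. It differed by -0.15 ± 0.07 between KMS-34 and KMS-11 (adjusted p = 0.11) and by -0.18 ± 0.07 between KMS-34/Cfz and KMS-11/Cfz (adjusted p = 0.056), although the arrays did not overlap in either comparison. In resistant cells NMI was called once KMS-34/Cfz replicate 2 (-0.23, adjusted p = 0.025) or KMS-11 replicate 2 (-0.18, adjusted p = 0.048) was left out and after cyclic loess scaling (-0.40, adjusted p = 3.9e-04), so that its side of the threshold was not stable.

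**Figure D4:**
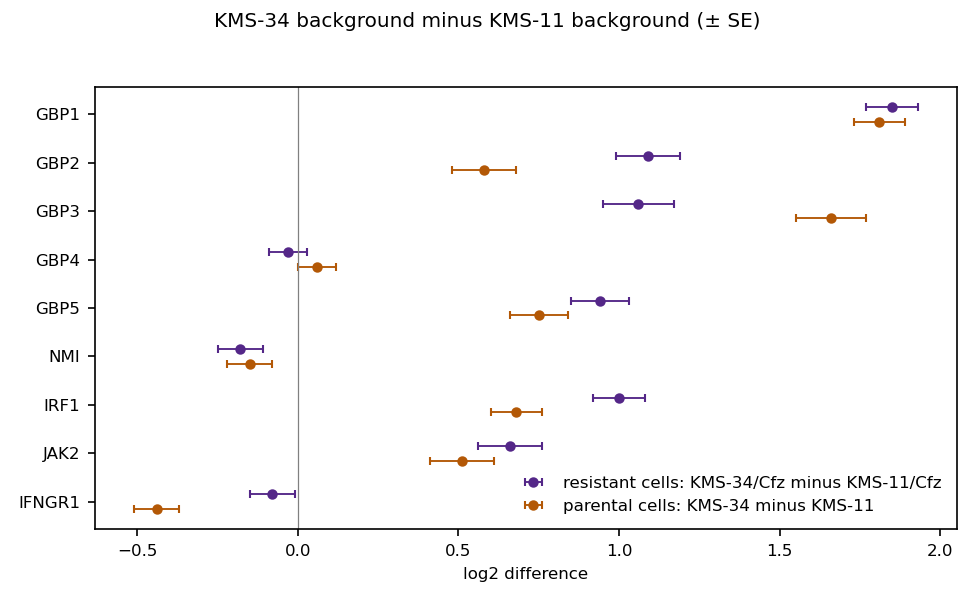
Log2 difference (x axis) between the KMS-34 and KMS-11 backgrounds for the 9 genes (y axis), in resistant cells (purple, KMS-34/Cfz minus KMS-11/Cfz) and parental cells (orange, KMS-34 minus KMS-11), with bars of 1 standard error. GBP1 lies at 1.85 and 1.81, whereas NMI lies at -0.18 and -0.15 and GBP4 at -0.03 and 0.06.

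Within each line, GBP1, GBP3 and NMI were compared across its 6 arrays, which span resistant and parental cells. Pearson's r of GBP1 with NMI was 0.95 in the KMS-34 and KMS-34/Cfz arrays and 0.99 in the KMS-11 and KMS-11/Cfz arrays, but 0.05 over all 12 arrays, where the line difference of GBP1 has no counterpart of that size in NMI. For GBP1 with GBP3, r was 0.71 and 0.95 within the lines and 0.94 over all arrays. IRF1 had an r of 0.57 with GBP1 in the KMS-34 pair and -0.71 in the KMS-11 pair. These values describe arrays that share their group and its mean, and carry no test. As NMI and GBP1 were chosen for standing higher in both resistant lines, their high r within a line follows from that choice.

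Over the 12 arrays, the genes whose pattern was most like that of GBP1 were CDT1 (r = 0.992), RTN3 (0.990), ARHGDIB (0.990), PEG10 (0.990) and SHISA5 (0.989), with r within each line of 0.81 to 0.96. For NMI they were MFHAS1 (r = 0.943), SRBD1 (0.940), CCHCR1 (0.937), SPTBN1 (0.933) and MAP1LC3B (0.932), with r within each line of 0.90 to 0.99. The other members were left out of this ranking. With 4 groups of 3 arrays, any gene with the same order of the group means reaches a high r.

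The 5 GBP genes lie in 1 cluster on chromosome 1, so they are not independent of each other, and their neighbours were examined. Of the 10 measured genes nearest to the cluster, 5 on each side, 0 were called higher and 0 lower in KMS-11/Cfz against KMS-11 by limma (median log2 difference -0.05, with 1 at an unadjusted p under 0.05, lower). In KMS-34/Cfz against KMS-34, 0 were called higher and 2 lower, KYAT3 (-0.30 ± 0.08, adjusted p = 0.04) and LRRC8D (-0.23 ± 0.06, adjusted p = 0.026), with 0 higher and 4 lower at an unadjusted p under 0.05 (median -0.08). Between the lines, most neighbours were higher in the KMS-34 background, like the GBP genes. Of the 10, 7 were called higher in KMS-34 than in KMS-11 (median 0.48) and 7 higher in KMS-34/Cfz than in KMS-11/Cfz (median 0.43), with none lower. Of all genes, 21.6% were called higher and 20.5% lower in parental cells, and 22.5% and 20.8% in resistant cells. LRRC8D, at 1.34 ± 0.06 in parental cells, was the highest, and PKN2, GTF2B, KYAT3, RBMXL1, LRRC8B and LRRC8C were also called. The part of this regional difference in the line differences of the GBP genes was not tested. Around NMI, 0 of 10 neighbours were called in KMS-11/Cfz (1 at an unadjusted p under 0.05), and in KMS-34/Cfz 1 was, RND3, which was lower (-0.67 ± 0.08). Of all genes, 1.63% were called higher and 1.94% lower in KMS-11/Cfz, and 5.4% and 4.69% in KMS-34/Cfz. With shares this low, the few calls among 10 neighbours in resistant against parental cells are not read as a result about either locus.

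The rest of the pathway was followed through 7 lists with 130 measured genes in all, members left out. The lists were chosen with earlier results of these data known. The shares of called genes are therefore descriptions, and the adjusted p-values of list genes here and below carry the same limit. At an adjusted p under 0.05, 22 of the 130 genes (16.9%) rose and 5 (3.85%) fell in KMS-34/Cfz against KMS-34, where 5.4% of all genes were called higher and 4.69% lower. In KMS-11/Cfz against KMS-11, 8 (6.15%) rose and 3 (2.31%) fell, where 1.63% of all genes were called higher and 1.94% lower. For the difference between the changes, 14 were called higher and 4 lower, where 3.7% and 2.74% of all genes were, but 9 higher and 14 lower after cyclic loess scaling. The plot of the pathway genes shows that the type I interferon-stimulated genes made up most of the calls. The counts depend on the arrays and the scaling. Without KMS-34/Cfz replicate 1 they were 28 and 9 in KMS-34/Cfz and 12 and 5 in KMS-11/Cfz. After cyclic loess scaling they were 17 and 8 and 15 and 2. In KMS-34/Cfz the rises dropped to 15 when the third resistant array was left out, and to 17 without the second. Leaving out the first parental array of that line also gave 15, and either of the others 20. Fits to the arrays of each line alone gave 13 and 1 in KMS-34/Cfz and 18 and 10 in KMS-11/Cfz. In KMS-11/Cfz, without 1 of the KMS-11/Cfz or KMS-11 arrays, the rises ranged from 4 (without KMS-11/Cfz replicate 2) to 7 (without KMS-11 replicate 2), and were 5 without any of the other 4.

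**Figure D5:**
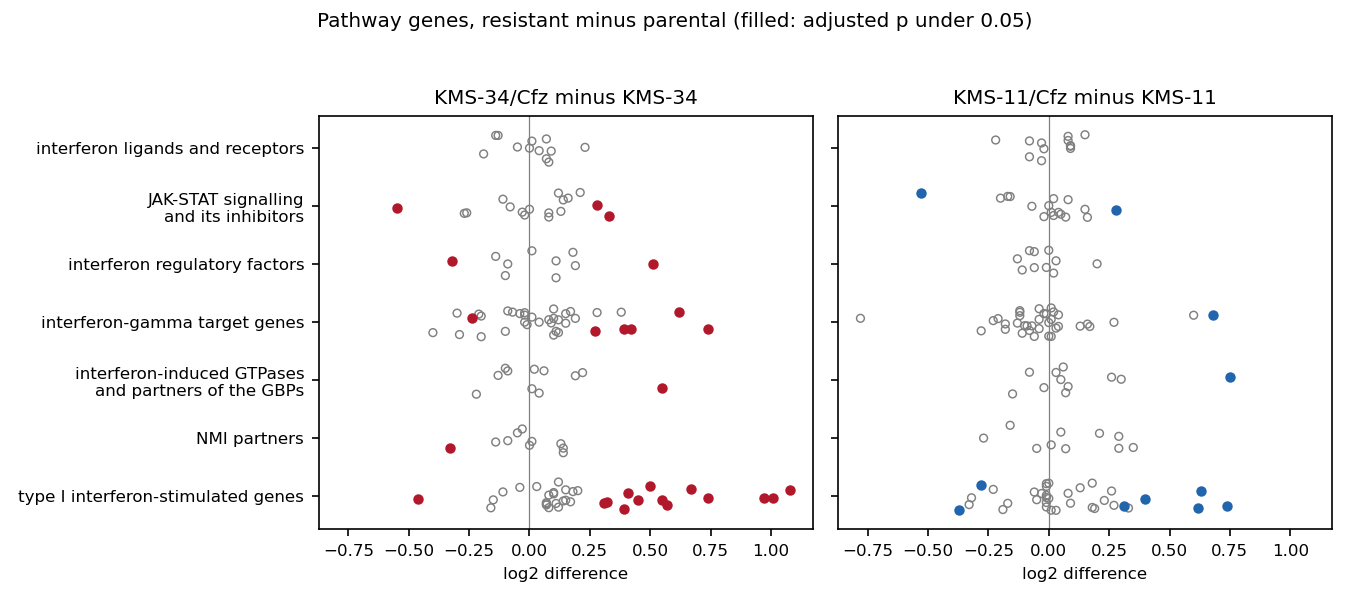
Log2 difference between resistant and parental cells (x axis) of the genes of 7 interferon-related lists (y axis), left for KMS-34/Cfz and right for KMS-11/Cfz, with filled points for genes at an adjusted p under 0.05 and open points for the others; vertical scatter within a list carries no meaning. The type I interferon-stimulated genes hold 13 of the called rises in KMS-34/Cfz and 5 in KMS-11/Cfz.

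Upstream of the members, none of 12 interferon and receptor genes, IFNG and IFNGR2 among them, was called by limma in either resistant line, and at an unadjusted p under 0.05 there were 0 in KMS-34/Cfz and 1 in KMS-11/Cfz, which was lower. The median difference was 0.02 in KMS-34/Cfz and 0.03 in KMS-11/Cfz, against -0.01 and 0.00 over all genes. Of 17 measured genes of JAK-STAT signalling and its inhibitors, PIAS3, which inhibits STAT proteins, fell in KMS-34/Cfz (-0.55 ± 0.10, adjusted p = 0.0036), and PTPN6, a phosphatase that dampens cytokine signalling, fell in KMS-11/Cfz (-0.53 ± 0.09, adjusted p = 0.005). STAT6, a mediator of interleukin-4 signals, rose by 0.28 ± 0.06 in KMS-34/Cfz (adjusted p = 0.0083) and by 0.28 ± 0.06 in KMS-11/Cfz (adjusted p = 0.02). The second of these calls was lost without any 1 of the 6 KMS-11/Cfz and KMS-11 arrays (adjusted p = 0.062 to 0.092). USP18, which restrains interferon receptor signalling, differed by 0.33 ± 0.09 in KMS-34/Cfz (adjusted p = 0.044), a call lost on leaving out replicate 2 (0.34, adjusted p = 0.095) or 3 (0.25, 0.15) of KMS-34/Cfz, KMS-34 replicate 1 (0.30, 0.13) or 2 (0.28, 0.14), KMS-11/Cfz replicate 2 or 3, or any KMS-11 array (0.33 each, adjusted p = 0.051 to 0.064).

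Of 36 measured interferon-gamma target genes other than the members, 5 rose and 1 fell in KMS-34/Cfz, with a median difference of 0.09. The largest rises were those of CASP1, the inflammasome protease (0.74 ± 0.09, adjusted p = 2.5e-04), HLA-DRA, an MHC class II chain (0.62 ± 0.07, adjusted p = 6.9e-05), and the adhesion molecule ICAM1 (0.42 ± 0.09, adjusted p = 0.0079). The immunoproteasome subunits PSMB10 (0.39 ± 0.07, adjusted p = 0.003) and PSMB8 (0.27 ± 0.07, adjusted p = 0.016) were the other 2. The call of PSMB8 was lost on leaving out the second (0.25, adjusted p = 0.07) or the third KMS-34/Cfz array (0.25, 0.052) or the first KMS-34 array (0.24, 0.064). The 1 gene called lower, IFI16 (-0.24 ± 0.07, adjusted p = 0.048), lost its call on leaving out any array other than KMS-34 replicate 3 (-0.28 to -0.20, adjusted p = 0.053 to 0.15). In KMS-11/Cfz 1 of 36 rose, the apolipoprotein APOL1 (0.68 ± 0.14, adjusted p = 0.016), and the median was -0.04. Its call was lost without KMS-11/Cfz replicate 2 (0.61, adjusted p = 0.08) or replicate 3 (0.69, adjusted p = 0.058).

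Of 10 measured regulatory factors related to IRF1, IRF8 rose (0.51 ± 0.07, adjusted p = 5.6e-04) and IRF4, the plasma cell factor, fell (-0.32 ± 0.07, adjusted p = 0.014) in KMS-34/Cfz, and none was called in KMS-11/Cfz, nor at an unadjusted p under 0.05 (0 of 10). The call of IRF4 was lost without probe sets ending in x_at or s_at (-0.19, adjusted p = 0.12). Of 11 measured interferon-induced GTPases and partners of the GBPs, MX1, an antiviral GTPase, rose in KMS-34/Cfz (0.55 ± 0.10, adjusted p = 0.0026), and AIM2, a DNA sensor that starts an inflammasome, rose in KMS-11/Cfz (0.75 ± 0.09, adjusted p = 3.1e-04). Of 10 NMI partners, MYC fell in KMS-34/Cfz (-0.33 ± 0.07, adjusted p = 0.0074) and none was called in KMS-11/Cfz (5 at an unadjusted p under 0.05), where IFI35, the binding partner of NMI, differed by 0.29 ± 0.09 (adjusted p = 0.14).

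Among 35 type I interferon-stimulated genes, 13 rose and 1 fell in KMS-34/Cfz (median 0.15), led by DTX3L (1.08 ± 0.08, adjusted p = 3.8e-06), EPSTI1 (1.01 ± 0.09, adjusted p = 1.1e-05) and PARP9 (0.97 ± 0.09, adjusted p = 1.1e-05). DTX3L and PARP9 form a complex in the DNA damage and interferon responses. In KMS-11/Cfz 5 rose and 2 fell (median 0.00), led by DDX60 (0.74 ± 0.10, adjusted p = 8.8e-04), IFI44 (0.63 ± 0.09, adjusted p = 0.0011, but 0.16 and 0.8 without probe sets ending in x_at or s_at) and IFIT3 (0.62 ± 0.10, adjusted p = 0.0028). In a fit to the KMS-34/Cfz and KMS-34 arrays alone, STAT6 (adjusted p = 0.11), USP18 (0.14), PSMB8 (0.12), IFI16 (0.21), ICAM1 (0.068), MYC (0.081) and IRF4 (0.1) no longer passed among the genes named up to here, nor did the markers PRDM1 (0.083) and CD14 (0.16), while the differences stayed the same. Of the type I genes, IFIT3 and PARP14 were called higher in both lines, at 0.39 and 0.55 in KMS-34/Cfz and 0.62 and 0.31 in KMS-11/Cfz. The calls of IFIT3 in KMS-34/Cfz and of PARP14 in KMS-11/Cfz were each lost under 6 alternatives.

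Between the lines, the pathway genes differed in both directions, with 44 of 130 (33.8%) higher and 46 (35.4%) lower in KMS-34 than in KMS-11, against 21.6% and 20.5% of all genes. In KMS-34/Cfz, 43 (33.1%) were higher and 37 (28.5%) lower than in KMS-11/Cfz, against 22.5% and 20.8% of all genes. STAT4 was higher by 2.96 in parental and 3.01 in resistant cells, IRF5 by 1.67 and 1.86, and the interferon-alpha receptor chain IFNAR2 by 0.99 and 1.08. IFNGR2 was lower, like IFNGR1 in parental cells (-0.43 in parental and -0.31 in resistant cells), and so were IRF7 (-1.15 and -0.98) and the MHC class II invariant chain CD74 (-2.84 and -2.86).

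Of markers of other cell types, none of 5 T and NK cell markers and none of 5 stromal markers was called by limma in any comparison of 2 groups, nor at an unadjusted p under 0.05 (0 in each), with log2 differences within -0.24 to 0.12. Of 4 measured monocyte markers, CD14 differed by -0.32 ± 0.09 in KMS-34/Cfz against KMS-34 (adjusted p = 0.031), a call lost on leaving out replicate 1 (-0.24, adjusted p = 0.074) or 2 (-0.36, 0.051) of KMS-34/Cfz or replicate 2 (-0.31, 0.086) or 3 (-0.25, 0.13) of KMS-34, and S100A9 by -0.20 in KMS-34/Cfz against KMS-11/Cfz (adjusted p = 0.025). Of 7 plasma cell markers, 3 fell in KMS-34/Cfz and 1 in KMS-11/Cfz, and none was called higher in either. At an unadjusted p under 0.05, 1 was higher and 3 lower in KMS-34/Cfz, and 1 higher and 2 lower in KMS-11/Cfz. CD38 had the highest difference, 0.34 in KMS-34/Cfz and 0.44 in KMS-11/Cfz, with resistant arrays above parental ones in both lines. SLAMF7, a plasma cell surface marker, fell by 1.00 ± 0.08 (log2) in KMS-34/Cfz (adjusted p = 7.0e-06), and it fell in KMS-11/Cfz too (-0.97 ± 0.08, adjusted p = 2.2e-05), and IRF4 in KMS-34/Cfz as given above. PRDM1 differed by -0.33 ± 0.07 in KMS-34/Cfz (adjusted p = 0.0099), but by -0.24 without probe sets ending in x_at or s_at (adjusted p = 0.18) and by -0.22 at its most variable probe set (adjusted p = 0.52). Their part in the values of the members was not tested.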

How the data were processed

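Total RNA of 4 groups was measured on 12 Affymetrix human genome arrays. Per the labels, the authors normalized the arrays with RMA (version not given in the sources used here). The deposited table holds log2 values of 54613 probe sets, centred for each probe set by a rule that the sources used here do not give: 99.99% of probe sets have 3 to 9 values below 0, but only 7.2% have a median of 0 within 0.001. Centred values allow differences between arrays, but no levels. Dim probe sets could therefore not be filtered, and 0 control probe sets were found for a check. The number of arrays limits the precision. Probe sets were named from the platform annotation, of which 41091 name 1 gene, 1801 several and 11721 none, and 41037 were matched to a gene number in the RefSeq table (GRCh38.p14). Probe sets of 1 gene were averaged to 19775 gene values.

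All 12 arrays entered 1 fit (lmFit, contrasts.fit and eBayes of limma 3.58.1, run in R 4.3.3), with a mean per group, a two-sided test, Benjamini-Hochberg adjustment over all genes (or all probe sets for values of single probe sets) and a threshold of 0.05. The methods of the study name no test for the arrays. SE is the moderated standard error of this fit. The fit was tested on simulated data. Members and lists were chosen with earlier results of these data known. All members are named, and of each list and comparison up to 3 called genes with the largest difference, but between the lines only some of these. PSMB10, PSMB8, IFI16, PARP14, IFIT3 in KMS-34/Cfz, IFNG, IFI35 in KMS-11/Cfz and the neighbouring genes were named after their values were seen. Lists leave out members. Promoters were searched with Python 3.11.15, pandas 2.3.3 and numpy 2.4.6, and figures drawn with matplotlib 3.10.9. The alternatives were another probe set rule, other scalings, weights, robust moderation, the replicate number as a block, smaller fits, a threshold of 0.01 and leaving out arrays.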

Additional observations from a re-analysis of the deposited data

Results flagged for a closer look

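The results below set the change in KMS-34/Cfz against that in KMS-11/Cfz. GBP2 was picked out because every KMS-34/Cfz array lay above the KMS-34 mean while every KMS-11/Cfz array lay below the KMS-11 mean. The change in KMS-34/Cfz minus that in KMS-11/Cfz was 0.51 on the log2 scale (SE 0.15). Since GBP2 was chosen with these contrasts known, the value is a description, without a test.

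Among pathway genes, the test of the difference between the changes (limma, Benjamini-Hochberg adjusted p) picked out 10 named genes. The lists that hold them were chosen with earlier results of these data known, which limits what these p-values show. The change in KMS-34/Cfz was the higher one for EPSTI1 by 1.33 (adjusted p = 3.8e-05), PARP9 by 1.01 (2.7e-04), CASP1 by 0.83 (0.0022), HLA-DRA by 0.75 (4.9e-04), ICAM1 by 0.63 (0.009), USP18 by 0.49 (0.048) and IRF8 by 0.49 (0.012). It was the lower one for AIM2 (-0.97, adjusted p = 5.2e-04), DDX60 (-0.90, adjusted p = 0.0021) and PIAS3 (-0.56, adjusted p = 0.034).

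USP18 and PIAS3 lay near the threshold, and their differences kept about the same size where the call was lost. PIAS3 lost its call without replicate 1 or 3 of KMS-11/Cfz, 2 of KMS-34/Cfz, 2 or 3 of KMS-34, or any KMS-11 array (-0.60 to -0.50, adjusted p = 0.05 to 0.093), and USP18 without replicate 2 or 3 of KMS-11/Cfz, 2 or 3 of KMS-34/Cfz, 1 or 2 of KMS-34, or any KMS-11 array (0.40 to 0.51, adjusted p = 0.073 to 0.13). With all arrays kept, USP18 also lost its call after cyclic loess scaling (0.48, adjusted p = 0.066), with the replicate block (0.49, adjusted p = 0.065) and at the most variable probe set of each gene (0.49, adjusted p = 0.069). CASP1 was also lost without probe sets ending in x_at or s_at (0.60, adjusted p = 0.12). After cyclic loess scaling, CASP1 (0.34, adjusted p = 0.19) and HLA-DRA (0.41, adjusted p = 0.19) were no longer called.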

How the results depend on the processing

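Over 21 alternatives, the number of members called between the lines stayed within 1.5 times of 7 in parental and of 6 in resistant cells. IFNGR1 lost its parental call without probe sets ending in x_at or s_at (-0.19, adjusted p = 0.075), and NMI passed in resistant cells under 4 alternatives. NMI, GBP1 and GBP3 kept the sign of both resistant-minus-parental differences under all 21, with NMI at 0.51 to 0.83, GBP1 at 0.30 to 0.73 and GBP3 at 0.16 to 0.51 in KMS-34/Cfz and 0.92 to 1.35 in KMS-11/Cfz. Without the first replicates of KMS-34/Cfz and KMS-34 and replicate 3 of KMS-11, the fit gave 0.72 in KMS-34/Cfz and 0.67 in KMS-11/Cfz for NMI. Differences near 0 (GBP4, GBP5, IRF1 and IFNGR1 in KMS-11/Cfz, JAK2 in KMS-34/Cfz) changed sign under some alternatives, for IRF1 and GBP5 in KMS-11/Cfz under cyclic loess among them (0.09 and 0.06).

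Counts over all genes moved more. In KMS-11/Cfz against KMS-11 (706 genes), array weights gave 2005 genes, the 2 groups alone 1374, a threshold of 0.01 302, and probe sets other than x_at and s_at 461, and leaving out 1 array gave 328 (without KMS-11/Cfz replicate 1) to 1067 (without KMS-34/Cfz replicate 1). In KMS-34/Cfz against KMS-34 (1996), the 2 groups alone gave 754 and a threshold of 0.01 1022. Interaction of line and selection, the difference between the changes (1274), moved likewise: array weights gave 2712, a threshold of 0.01 539 and leaving out 1 array 783 to 1935. Cyclic loess moved the share of calls that were higher to 66.1% in KMS-11/Cfz, against 45.6%, and to 36.7% for the difference between the changes, against 57.5%. The cause was not tested. Of 693 values of named pathway genes, 66 lost the call and 0 reversed.

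The labels do not say that replicate numbers mark a shared culture or day. The deviations of same-numbered arrays correlated at 0.52, 0.34 and 0.07 between KMS-34/Cfz and KMS-34 and at -0.02, 0.12 and 0.02 between KMS-11/Cfz and KMS-11, and 2 of 3 resistant arrays of each line correlated best with their own number, a hint at pairing in the KMS-34 line. As not every pair passed 0.1, the numbers were not treated as pairs. With the replicate number as a block, the fit called 2094 genes in KMS-34/Cfz (1996 without it) and 720 in KMS-11/Cfz (706 without it), and NMI passed between the resistant lines (-0.18, adjusted p = 0.037).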
